A study of Homo sapiens with 6 samples.

Results

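The enzymes of de novo purine and pyrimidine synthesis were followed at the mRNA level in the parental line ZR-75-1, human breast cancer cells that carry the oestrogen receptor. The list holds 10 genes, PPAT, GART, PAICS, ADSL, ATIC, CAD, DHODH, UMPS, IMPDH2 and CTPS1, chosen by their place in the pathways and found by Ensembl identifier among the 60656 genes counted. All 10 had enough counts to be tested, among 10863 genes tested in all. The cells were grown with DMSO, the vehicle, or with 500 nM abemaciclib, an inhibitor of CDK4 and CDK6, for 4 days, with 3 libraries in each group. Both groups carried intact RB1, and the RB1 knockout cells of the same design were not analysed here. By the account of the study, RNA-seq used 3 independent biological replicates per condition. It describes the ZR-75-1 RNA-seq with abemaciclib and fulvestrant as performed once. Whether these 4-day libraries belong to that experiment is not given in the sources used here. P values therefore measure the spread between replicates and cannot be read as the spread between experiments.

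Cells build purines and pyrimidines from amino acids, bicarbonate, formyl folate and PRPP, an activated ribose phosphate. In the purine route the ring is assembled on PRPP until IMP is made, from which the branches to AMP and GMP part. In the pyrimidine route the ring is closed first and joined to PRPP afterwards, which gives UMP and, further on, CTP. Dividing cells use these products for RNA and DNA, while salvage enzymes recover bases and nucleosides that already exist.

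Total counts per library lay between 3317860 and 4013156. The approximate upper 95% limit for a count of 0, 3 counts, stood for 0.740 to 0.909 CPM, counts per 1000000. Such limits leave out every error but that of counting. Reads came from the 3′ ends of polyadenylated mRNA, and counts therefore do not grow with transcript length. CPM values are scaled by the TMM method and are shares of a library, not amounts per cell, and fewer expressing cells and less RNA per cell cannot be told apart in bulk RNA. MKI67, the proliferation marker used as a check of the treatment, fell from 525.8 ± 31.4 to 5.00 ± 2.28 CPM (SD, n = 3 in each group). The luminal markers ESR1, GATA3, EPCAM, KRT8, KRT18 and KRT19 were all detected, with means of at least 121.5 CPM in both groups. Among these 6 markers ESR1 and KRT19 rose with abemaciclib (log2 fold change 0.83 and 0.45, adjusted P = 2.92e-07 and 0.000207), KRT18 fell (−0.34, adjusted P = 0.00515), and the other 3 did not pass. Of 9 markers of other cell types, 7 had 0 counts in every library, among them VIM, PTPRC and PECAM1. Those 9 markers summed to 63 to 96 counts with DMSO and 43 to 63 with abemaciclib, from COL1A1 and ACTA2, of which ACTA2 had 9.25 ± 3.71 and 1.31 ± 0.714 CPM (SD, n = 3) in that order.

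On GRCh38 the 10 genes lie on 7 chromosomes. PPAT (ENSG00000128059) at chr4:56393362-56435615 and PAICS (ENSG00000128050) at chr4:56435741-56464578 stand head to head, with 125 bases between their 5′ ends. GART (ENSG00000159131) lies at chr21:33503931-33543491, ADSL (ENSG00000239900) at chr22:40346461-40390463 and ATIC (ENSG00000138363) at chr2:215311956-215349773. CAD (ENSG00000084774) lies at chr2:27217369-27243943, DHODH (ENSG00000102967) at chr16:72008588-72027664 and UMPS (ENSG00000114491) at chr3:124730433-124749273. IMPDH2 (ENSG00000178035) lies at chr3:49024325-49029447 and CTPS1 (ENSG00000171793) at chr1:40979300-41012565. The last exons of ADSL and IMPDH2 overlap exons of other annotated protein-coding genes on the same strand, ENSG00000284431 and ENSG00000290315. The gene that overlaps IMPDH2 was not among the genes counted. That at ADSL was counted and held 0 counts. How reads in the overlapped exon of ADSL were assigned is not given in the sources used here, which leaves its count uncertain. No gene on the opposite strand has an exon inside the last exon of any of the 10. The 2 pseudogenes of PPAT and the 7 of PAICS held 0 counts.

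Stretches of sequence around the start sites are shown because PPAT and PAICS share a promoter region and because an E-box, the hexamer bound by MYC and related factors, recurs among the 10 genes. RefSeq windows of 300 bases on GRCh38.p14, from 250 before to 50 after a start site, matched 8 of the 10 genes, and ADSL and IMPDH2 were the others. The region between PPAT and PAICS is written on the strand of PAICS with the GC boxes in capitals, and it overlaps no annotated exon. In the other stretches, each on the strand of its gene, capitals mark the E-box, the cyclic AMP response element (CRE) of UMPS or the overlapping GC boxes of CTPS1, the gene whose mRNA fell. By the GENCODE annotation the stretches of PAICS, ATIC, DHODH and CTPS1 overlap exons of those genes, and that of UMPS overlaps an exon of ENSG00000288713.
PPAT to PAICS, chr4:56435616-56435740: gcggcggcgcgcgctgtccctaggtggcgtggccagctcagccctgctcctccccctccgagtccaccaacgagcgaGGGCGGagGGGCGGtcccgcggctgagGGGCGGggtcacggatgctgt
PAICS, chr4:56435776-56435801: aaagctgtatttgctgCACGTGgaaa
ATIC, chr2:215312001-215312030: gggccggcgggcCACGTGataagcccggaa
ATIC, chr2:215312079-215312108: ctacctgcgCACGTGgtgccgccgctgctg
DHODH, chr16:72008573-72008602: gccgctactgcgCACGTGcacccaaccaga
UMPS, chr3:124730394-124730423: gacttcgcgggTGACGTCAtcggggcgccg
CTPS1, chr1:40979636-40979665: tccaggccCCGCCCCGCCCcgcgccctcca

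The E-box, CACGTG, was in the windows of 4 of the 8 genes (PPAT, PAICS, ATIC and DHODH), against 8.36% of 19094 windows with 1 window a gene. PPAT and PAICS hold the same hexamer, at position −182 from the start of PPAT and 40 from that of PAICS, and ATIC holds a pair. The GC box, GGGCGG, was in 6 of the 8 windows against 54.4% of all, and CCAAT was in 3 (CAD, DHODH and GART) against 36.2%. The CRE, TGACGTCA, was in the window of UMPS and in 2.44% of all windows. The E2F forms TTTCGCGC and TTTGGCGC, read on both strands like the other motifs, were in 0 of the 8 windows, against 0.733% and 0.807% of all. These matches describe letters in a window and were not tested for binding.

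CTPS1, the enzyme that turns UTP into CTP, was lower with abemaciclib, and it was the single member of the list to pass the threshold. The other 9 did not pass, and the list as a whole had a median log2 fold change of −0.20, against −0.0018 over all genes tested. Thus 1 of 10 was lower, beside 13.3% of all genes tested, and 0 of 10 were higher, beside 12.5%, so the share called lower was near that of the transcriptome. At an unadjusted P under 0.05 the counts were 3 lower (ATIC, CAD and CTPS1) and 0 higher. The share of all genes at that looser cut is not given here. Counts at an unadjusted P, here and for the lists below, therefore have no reference beside them. DESeq2 called 0 of the 10 in either direction, beside 10.1% of genes lower. The fitted level was lower for 8 genes and higher for 2, PPAT and UMPS. Every abemaciclib library lay below every DMSO library for IMPDH2 and CTPS1, which is 2 of 10 beside 20.1% of all genes, and the reverse order held for 0 of 10 beside 19.1%. The 95% interval of the log2 fold change lay above −1 for 9 of the 10 genes, the exception being CTPS1, and it lay above −0.5 for 5.

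**Figure D1:**
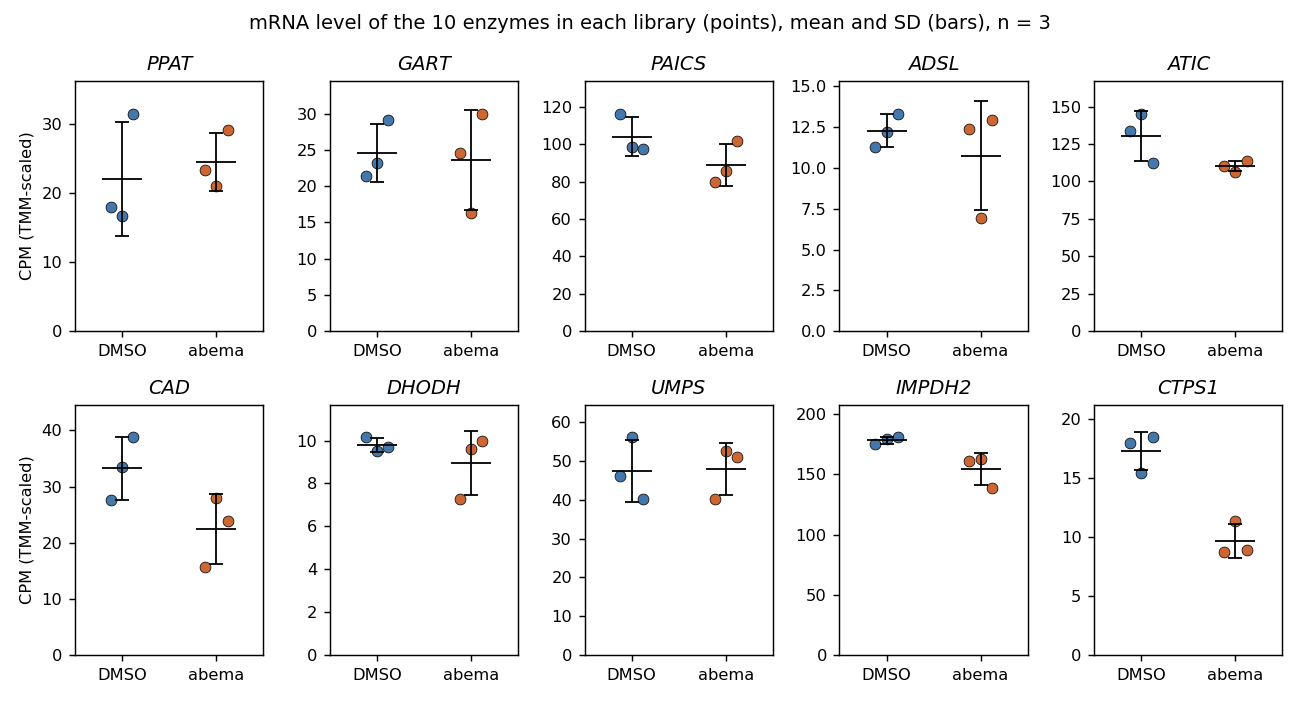
TMM-scaled CPM (vertical axes, each from 0) of the 10 enzymes in the 3 DMSO and the 3 abemaciclib ("abema") libraries, with bars for the mean and SD. The groups are apart for IMPDH2, between 138.9 and 162.8 CPM with abemaciclib and between 175.2 and 180.8 with DMSO, and for CTPS1, and overlap for the other 8.

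**Figure D2:**
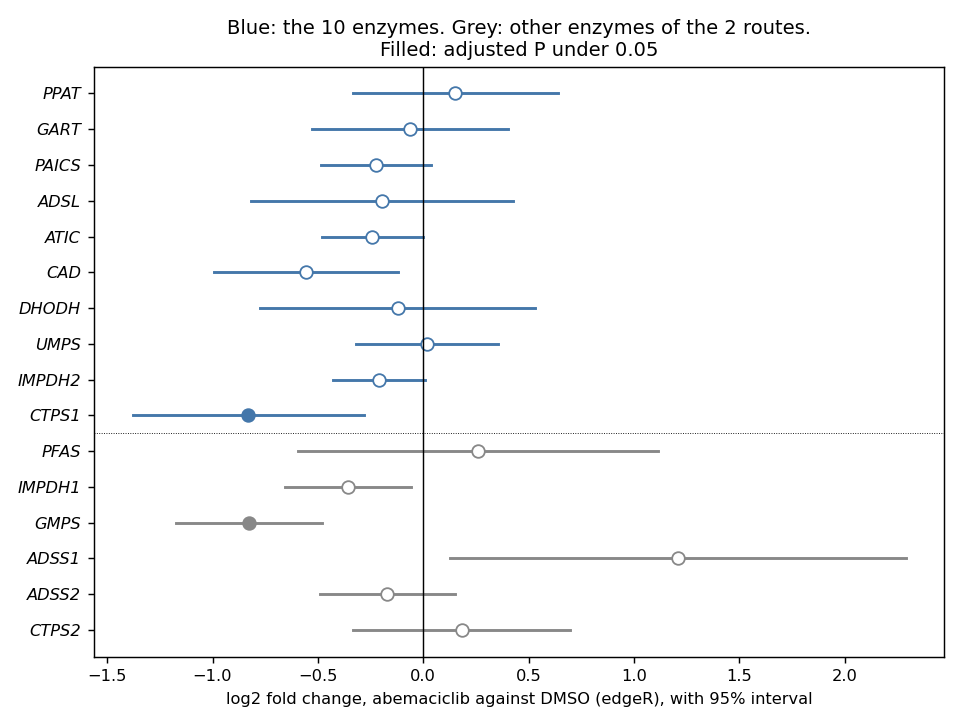
Log2 fold change of abemaciclib against DMSO with its 95% interval (horizontal axis) for the 10 enzymes and the 6 other enzymes of the routes, filled where the adjusted P from edgeR was under 0.05. CTPS1 at −0.83 and GMPS at −0.83 are the filled points.

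The purine route to IMP is served by 5 genes of the list, and none of them passed the threshold. PPAT encodes the amidotransferase of the committed step, in which glutamine gives its nitrogen to PRPP. Its level was 18.0, 16.6 and 31.5 CPM in the DMSO libraries and 23.3, 21.0 and 29.2 CPM in the abemaciclib libraries. The groups overlapped, with DMSO replicate 3 the highest of the 6 libraries, and the log2 fold change was 0.15 (95% interval −0.33 to 0.64, adjusted P = 0.697). GART is a multifunctional enzyme of the next steps, which builds and formylates the first intermediates. It had 21.5, 23.2 and 29.1 CPM with DMSO and 24.5, 16.3 and 30.0 CPM with abemaciclib. Both the lowest and the highest library were of the abemaciclib group, and the log2 fold change was −0.06 (interval −0.53 to 0.40, adjusted P = 0.878).

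PAICS carries out the carboxylation and the joining of aspartate that follow in the purine route. Its level was 116.3, 98.6 and 97.2 CPM with DMSO and 79.6, 85.9 and 101.6 CPM with abemaciclib. Abemaciclib replicate 3 reached the range of the DMSO libraries, and the log2 fold change was −0.22 (interval −0.48 to 0.03, adjusted P = 0.206). ADSL, the lyase that releases fumarate on the way to IMP and again on the way to AMP, had 11.3, 12.2 and 13.3 CPM with DMSO. With abemaciclib it had 12.4, 6.91 and 13.0 CPM, so that only replicate 2 stood below the DMSO range. Its log2 fold change was −0.20 with the wide interval of −0.82 to 0.42 (adjusted P = 0.694). ATIC closes the purine ring and yields IMP, and it had 133.7, 145.3 and 112.1 CPM with DMSO. The abemaciclib libraries, at 110.4, 106.6 and 113.8 CPM, lay close together at the lower edge of that range. The log2 fold change of ATIC was −0.24 (interval −0.48 to −0.0027, adjusted P = 0.133).

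The pyrimidine route to UMP is made up of CAD, DHODH and UMPS, and 0 of these 3 passed. CAD, the multifunctional protein that forms and closes the ring up to dihydroorotate, had 27.6, 33.6 and 38.8 CPM with DMSO and 15.7, 27.9 and 23.8 CPM with abemaciclib. Abemaciclib replicate 2 lay just inside the DMSO range and the other two below it. The log2 fold change of CAD, −0.56 (interval −0.99 to −0.12, adjusted P = 0.0543), was the nearest to the threshold among the 9 enzymes of the list that missed it. CAD passed without DMSO replicate 1 (−0.68, adjusted P = 0.0391), without abemaciclib replicate 2 (−0.74, adjusted P = 0.0299) and without abemaciclib replicate 3 (−0.59, adjusted P = 0.0440). Without abemaciclib replicate 1, the library with the lowest CAD, its log2 fold change was −0.36 (adjusted P = 0.249).

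DHODH, the dehydrogenase of the inner mitochondrial membrane that makes orotate, was the least abundant of the 10. It had 10.2, 9.51 and 9.69 CPM with DMSO and 7.26, 9.62 and 10.0 CPM with abemaciclib. These stand on 24 to 39 counts a library, and the interval of the log2 fold change of −0.12 ran from −0.77 to 0.53 (adjusted P = 0.828). UMPS, which joins orotate to PRPP and decarboxylates it to UMP, had 46.1, 56.1 and 40.3 CPM with DMSO. Its abemaciclib libraries had 40.2, 52.6 and 51.1 CPM, almost the same range. The log2 fold change of UMPS was 0.02 (interval −0.32 to 0.35, adjusted P = 0.959), the smallest of the list in size.

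Past IMP and UMP, IMPDH2 and CTPS1 stand at the entries to guanine and cytosine nucleotides. IMPDH2, the more abundant of the isoenzymes that oxidize IMP on the way to GMP, had 175.2, 179.1 and 180.8 CPM with DMSO and 161.0, 162.8 and 138.9 CPM with abemaciclib. Its groups did not overlap, yet the log2 fold change of −0.21 had an interval from −0.43 to 0.01 (adjusted P = 0.152). CTPS1 had 18.0, 15.4 and 18.5 CPM with DMSO and 8.77, 11.3 and 8.92 CPM with abemaciclib, from 52 to 62 and from 29 to 46 counts. The means were 17.3 ± 1.63 and 9.68 ± 1.45 CPM (SD, n = 3 in each group), with every abemaciclib library below every DMSO library. The level of CTPS1 fell by 43.7%, a log2 fold change of −0.83 (standard error 0.27, interval −1.38 to −0.28, adjusted P = 0.0218 from edgeR). The call of CTPS1 was lost with DESeq2 (−0.83, adjusted P = 0.0647) and in 4 of 6 fits that left out 1 library. Those were the fits without DMSO replicate 1 (−0.80, adjusted P = 0.0662), without DMSO replicate 3 (−0.78, 0.0685), without abemaciclib replicate 1 (−0.76, 0.0636) and without abemaciclib replicate 3 (−0.77, 0.0544). Its direction was the same in all 12 alternative fits.

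The routes hold 6 further enzymes. Of these 1, GMPS, was lower, beside 13.3% of all genes, and 0 were higher, beside 12.5% (2 and 1 at an unadjusted P under 0.05). GMPS, the synthetase that completes GMP after the IMPDH step, fell from 56.0 ± 9.30 to 31.5 ± 3.93 CPM (SD, n = 3 in each group). Its log2 fold change was −0.83 (interval −1.17 to −0.48, adjusted P = 0.00049), and its call held in all 6 fits that left out 1 library. The single annotated pseudogene of GMPS had a mean of 12 counts with DMSO and 2.67 with abemaciclib. For IMPDH1, the second isoenzyme of IMP oxidation, the change was −0.36 on the log2 scale (adjusted P = 0.0731), and without abemaciclib replicate 1 it passed (−0.48, adjusted P = 0.0260). PFAS, which acts between the steps of GART, had a log2 fold change of 0.26 (interval −0.59 to 1.11) at only 5.45 and 6.54 CPM on average. CTPS2, the isoenzyme of CTPS1, was at 0.18 (interval −0.33 to 0.70). The adenylosuccinate synthetases of the AMP branch, ADSS2 and the scarce ADSS1, were at −0.17 (adjusted P = 0.472) and 1.21 (adjusted P = 0.0940).

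Pairs of enzymes were also compared as log2 ratios of counts inside each library, which need no scaling between libraries. The ratio of CTPS1 to CTPS2 was 0.52, −0.30 and 0.20 with DMSO and −1.28, −0.72 and −0.62 with abemaciclib. All abemaciclib libraries were below all DMSO libraries, a mean difference of −1.01, with P = 0.10 (exact permutation test, two-sided, adjusted P = 0.40 over 4 pairs), the smallest P that 3 against 3 libraries allow. For IMPDH2 to IMPDH1 the mean log2 ratio was 1.24 ± 0.17 with DMSO and 1.38 ± 0.16 with abemaciclib (SD, n = 3, exact permutation P = 0.40). The head-to-head pair, PAICS to PPAT, had mean log2 ratios of 2.29 ± 0.58 and 1.86 ± 0.14 (SD, n = 3, exact permutation P = 0.40). GART to PFAS had 2.19 ± 0.40 and 1.79 ± 0.49 (SD, n = 3, exact permutation P = 0.40). In each of the last 3 pairs the groups overlapped, and with P bounded at 0.10 such a test could not have called a difference.

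The order of the levels was much the same in both groups. In TMM-scaled CPM per 3′ end, IMPDH2 was the highest with DMSO, followed by ATIC, PAICS, UMPS, CAD, GART, PPAT, CTPS1, ADSL and DHODH. Among neighbours in that order, ATIC and PAICS, CAD and GART, GART and PPAT, and PPAT and CTPS1 overlapped between libraries. With abemaciclib the first 4 kept their places, PPAT came before GART and CAD, and CTPS1 went from the 8th to the 9th place, after ADSL. In that group PPAT and GART, GART and CAD, ADSL and CTPS1, and CTPS1 and DHODH overlapped. The order rests on how well each 3′ end was captured, which may differ between genes. The 10 genes together took 568.4 to 597.1 CPM of the unscaled totals with DMSO and 477.4 to 505.8 CPM with abemaciclib, sums that rest mostly on IMPDH2, ATIC and PAICS. The median over the 10 genes, as log2 relative to the DMSO mean, was between −0.03 and 0.06 in the DMSO libraries. It was −0.23 and −0.25 in abemaciclib replicates 1 and 2 and 0.00037 in replicate 3, so the third library stood inside the DMSO range. Over all genes with enough counts, abemaciclib replicate 3 also differed most from its group. Its squared difference per gene, relative to counting error, was 6.90 from replicate 1 and 7.29 from replicate 2. That value was 3.48 between abemaciclib replicates 1 and 2, and 2.83 to 4.20 between DMSO libraries.

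The supply of substrates to the routes was mixed. Of the 4 tested genes of PRPP supply, 1 was lower, beside 13.3% of all genes, and 1 was higher, beside 12.5%. The counts in that list were also 1 and 1 at an unadjusted P under 0.05. PRPSAP1, at −0.23 (adjusted P = 0.375), and PRPSAP2, at 0.25 (adjusted P = 0.709), did not pass. PRPS1, a PRPP synthetase, rose from 36.1 ± 5.88 to 55.4 ± 7.18 CPM (SD, n = 3, log2 fold change 0.62, adjusted P = 0.00651). That call was just lost without DMSO replicate 3 (0.49, adjusted P = 0.0505). PRPS2, the second synthetase, was at −0.76 (adjusted P = 0.0482), which was called in only 1 of 6 fits that left out 1 library, that without DMSO replicate 3, and without DMSO replicate 1 it was −0.35 (adjusted P = 0.472). Of the 6 tested genes that supply formyl folate, 3 were lower, beside 13.3% of all genes, and 0 higher, beside 12.5% (4 and 0 at an unadjusted P under 0.05), and their median was −0.59 on the log2 scale. MTHFD2, the mitochondrial folate dehydrogenase, fell from 150.8 ± 4.75 to 77.4 ± 8.80 CPM (SD, n = 3, log2 fold change −0.96, adjusted P = 2.78e-07). MTHFD1L was at −1.32 (adjusted P = 0.00631, or 0.0529 without DMSO replicate 2) and SHMT2 at −0.47 (adjusted P = 0.00779, or 0.0876 without DMSO replicate 3). With 1 library left out, the count of lower genes in that list was 2 to 4. MTHFD1, the cytosolic enzyme that makes the formyl donor for the purine ring, had −0.39 and did not pass (adjusted P = 0.0988).

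Enzymes of deoxynucleotide supply were lower in 7 of 11 tested, beside 13.3% of all genes, and higher in 0, beside 12.5%. At an unadjusted P under 0.05 the counts were 8 and 2. Their median log2 fold change was −1.33, against −0.20 for the 10 enzymes of de novo synthesis, and the difference between the lists was not tested. TYMS, which makes thymidylate, had the largest fall among them, from 81.0 ± 5.41 to 1.20 ± 0.699 CPM (SD, n = 3, log2 fold change −6.06, adjusted P = 1.99e-16). The ribonucleotide reductase subunits RRM2 and RRM1 were at −4.90 and −1.33, DUT at −1.37, TK1 at −2.18 and DTYMK at −1.47, all called in every fit that left out 1 library. SAMHD1, which is counted in this list although it breaks deoxynucleotides down, was at −0.81. It was called in 1 of those 6 fits, without abemaciclib replicate 3. With abemaciclib TYMS had only 4, 2 and 7 counts and RRM2 only 8, 10 and 1, so the sizes of their falls are uncertain. In the fit that asked for at least 10 counts in every library, TYMS and RRM2 were not tested. In that fit 5 genes of the list were lower and the median was −1.08. The 2 genes higher at an unadjusted P were RRM2B (0.51, adjusted P = 0.121) and DCTPP1 (0.26, adjusted P = 0.104), and neither passed. Salvage enzymes showed 1 of 7 lower, beside 13.3% of all genes, and 0 higher, beside 12.5% (1 and 0 at an unadjusted P under 0.05). The lower gene was UCK2, a uridine-cytidine kinase, at −0.45 (adjusted P = 0.0216). The call of UCK2 was lost on leaving out DMSO replicate 1 (−0.44), DMSO replicate 2 (−0.41) or abemaciclib replicate 2 (−0.38). HPRT1 and APRT, which salvage purine bases, were at −0.27 and −0.15 and did not pass.

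The direction of 5 of the 10 enzymes, PAICS, ATIC, CAD, IMPDH2 and CTPS1, was the same in every alternative fit. PPAT, GART, ADSL, DHODH and UMPS changed sign when a single library was left out, and none of them was called in any fit. PPAT ranged furthest, from −0.016 without DMSO replicate 2 to 0.50 without DMSO replicate 3, the library in which it was highest. GART was at 0.0747 without DMSO replicate 3 and at 0.16 without abemaciclib replicate 2. ADSL was at 0.0515 without abemaciclib replicate 2 and DHODH at 0.0056 without abemaciclib replicate 1. UMPS was below 0 in 4 of the 6 fits, the lowest being −0.089 on leaving out DMSO replicate 3.

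**Figure D3:**
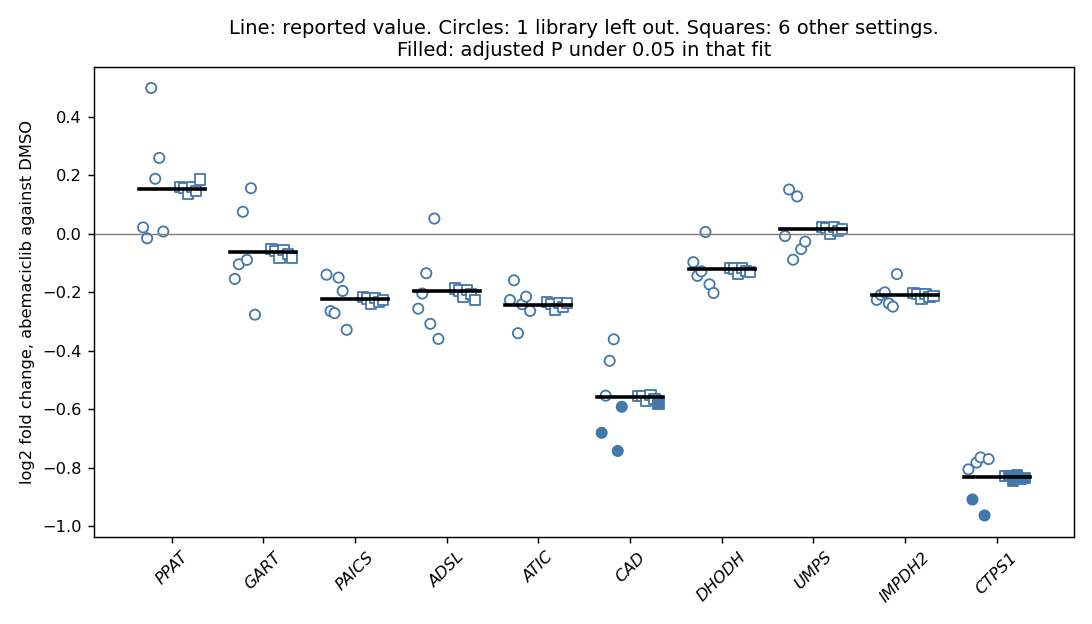
Log2 fold change of each of the 10 enzymes (vertical axis) as reported (line), with 1 library left out (circles) and under 6 other settings (squares), filled where the adjusted P was under 0.05 in that fit. CTPS1 stays between −0.96 and −0.76, filled in 7 of 12 fits, and CAD between −0.74 and −0.36, filled in 4.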

How the data were processed

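RNA was measured with 3′ mRNA libraries in 3 DMSO and 3 abemaciclib samples, grouped by the treatment in their labels. The authors trimmed single-end reads of 100 bases, aligned them to hg38 with STAR 2.7.5b and counted them per gene with featureCounts 2.0.1 on a GENCODE annotation, and deposited the raw counts without normalization. Whether the counting used strand is not given in the sources used here. Of the identifiers, 60401 were matched to a symbol and 255 were not, and gene positions were read from GENCODE v44, also on GRCh38.

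The main test was that of edgeR 4.0.16, run under R 4.3.3 (filterByExpr, TMM, glmQLFit, glmQLFTest, two-sided, Benjamini–Hochberg adjustment over all genes tested, threshold 0.05). Standard errors are the size of the log2 fold change over the square root of F, and 95% intervals use the t distribution of the fit. Ratios within a library used a prior count of 0.5 and an exact permutation test. The biological coefficient of variation was 13.2%. The scripts were first tested on simulated data. Alternatives were DESeq2 1.42.0, its size factors, library totals, no filter, the fit with each library left out, a minimum of 10 counts per library, the replicate number as a block and, for ratios, a prior count of 2.

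The members, lists and motifs were chosen with earlier results of these data known. Named are all 10 members, the genes of the other lists past the threshold that changed by 0.5 or more on the log2 scale, IMPDH1, PFAS, GMPS, CTPS2, MYC, ATF4 and MKI67. ADSS1, ADSS2, MTHFD1, SHMT2, UCK2, HPRT1, APRT, NME1, SLC1A5, SLC29A1, PRPSAP1, PRPSAP2, AMPD2, NT5C3B, MTOR, RPS6KB1, RRM2B, DCTPP1 and further markers were named besides, after their values were seen.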

Additional observations from a re-analysis of the deposited data

How the results depend on the processing

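The count of 1 enzyme lower became 0 with DESeq2 and 2, CAD and CTPS1, with the replicate number as a block (replicate block). With 1 library left out at a time it was 0 to 2, and 0 enzymes were higher under any alternative. The median log2 fold change of the 10 enzymes stayed between −0.27 and −0.17. Replicate numbers did not pair the libraries: same-numbered libraries had correlations of −0.04, 0.01 and −0.09 between their deviations from the group means. Over all genes, 1442 lower and 1354 higher became 1280 and 1139 with the block, under which the calls of PRPS2 (adjusted P = 0.0821), AK4 (0.0777) and NME1 (0.0745) were lost. Log2 fold changes that changed sign did so with 1 library left out: the ranges were −0.016 to 0.50 for PPAT, −0.28 to 0.16 for GART, −0.36 to 0.0515 for ADSL, −0.20 to 0.0056 for DHODH and −0.089 to 0.15 for UMPS. With DESeq2 the calls of PRPS2, UCK2, SAMHD1, AK4 and NT5C were lost too (adjusted P of 0.0576 to 0.132). The difference in the log2 ratio of CTPS1 to CTPS2 stayed between −1.23 and −0.81. For 5 of the 10 enzymes the mean was under 100 counts in each group, the range in which counting error is largest relative to the level. The cause of these shifts was not tested.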

Other observations

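Nucleotide kinases, which carry the monophosphates on to triphosphates, had 4 of 12 tested genes higher, beside 12.5% of all genes, and 0 lower (6 and 0 at an unadjusted P under 0.05). The count of 4 became 2 without any 1 of the DMSO libraries and 6 without abemaciclib replicate 3. AK3, a mitochondrial adenylate kinase family member that uses GTP, rose from 62.9 ± 7.38 to 118.1 ± 4.86 CPM (SD, n = 3, log2 fold change 0.91, edgeR adjusted P = 2.22e-06). AK1, the cytosolic adenylate kinase, rose from 13.2 ± 0.876 to 23.6 ± 1.72 CPM (SD, n = 3, log2 fold change 0.83, adjusted P = 0.00712), and both calls held in all 6 fits that left out 1 library. AK4, at 0.60, was called in 2 of those fits (without abemaciclib replicate 1 or 3) and was 0.32 without abemaciclib replicate 2. NME1, at 0.29, was also called in 2 of them (without abemaciclib replicate 2 or 3).

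Of 17 genes of nucleotide breakdown, 7 had enough counts to be tested. Of these 1 was lower, beside 13.3% of all genes, and 0 were higher, beside 12.5% (1 and 2 at an unadjusted P under 0.05). The lower gene was the nucleotidase NT5C (log2 fold change −0.69, adjusted P = 0.0219). It was called in 2 of 6 fits that left out 1 library, those without DMSO replicate 1 or abemaciclib replicate 2. The 2 genes higher at an unadjusted P were AMPD2 (0.60, adjusted P = 0.0647) and NT5C3B (0.43, adjusted P = 0.0815), and neither passed. With 1 library left out, 0 to 1 genes of nucleotide breakdown were called lower and 0 to 2 higher. Of the 4 tested genes of nucleoside and glutamine transport, 2 were lower, beside 13.3% of all genes, and 0 were higher, beside 12.5%. At an unadjusted P under 0.05 the counts in that list were 3 and 0. SLC7A5, a carrier of large neutral amino acids, fell from 74.0 ± 4.55 to 14.0 ± 0.957 CPM (SD, n = 3, log2 fold change −2.40, adjusted P = 7.06e-12). The nucleoside carrier SLC29A2 was at −0.51 (adjusted P = 0.0104, or 0.0733 without DMSO replicate 3), and SLC1A5, which takes up glutamine, was at −0.24 (adjusted P = 0.108). SLC29A1, the remaining gene of that list, was at −0.11 (adjusted P = 0.638) and did not pass. Of the 4 tested regulators known to act on the routes, 1 was lower, beside 13.3% of all genes, and 0 were higher, beside 12.5%. The lower gene, ATF4, fell from 156.3 ± 19.0 to 52.4 ± 5.48 CPM (SD, n = 3, log2 fold change −1.58, adjusted P = 1.03e-10). MYC had 37.3 ± 3.60 and 32.6 ± 4.73 CPM (SD, n = 3, log2 fold change −0.19, adjusted P = 0.481) and did not pass. MTOR, at 0.24 (adjusted P = 0.447), and RPS6KB1, at 0.34 (adjusted P = 0.134), lay above 0 and did not pass either.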
